A study of Mus musculus with 13 samples.

Results

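Interferon-stimulated genes are genes whose transcription rises when a cell receives an interferon signal. The set described here holds 35 of them, taken by symbol from a named list of sensors, transcription factors, antiviral effectors and interferon-inducible GTPases, out of the 53278 gene symbols in the count files. All 35 were found and all 35 were among the 15690 genes with enough reads to test. They were picked by symbol, though with earlier results of these data known.

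The data are RNA sequencing counts from 13 whole hearts of male wild-type C57Bl6 mice, all taken at 17 weeks of age, 5 weeks after surgery at 12 weeks. Sham hearts (n = 3) had sham surgery and no injection. IR hearts (n = 3) had ischaemia and reperfusion (IR), a temporary block of the blood flow to heart muscle, and no injection. IR virus hearts (n = 3) had IR and an injected control virus, and IR edit hearts (n = 4) had IR and an injected functional editing system for CaMKIIδ, a calcium-activated kinase of heart muscle. The labels give no kind or dose of virus and no batch, no sham-operated group was injected, and the labels do not say whether libraries of a group came from separate animals. P-values therefore measure the spread between these libraries. Whole hearts mix many cell types, so fewer cells of a type and less RNA per cell cannot be told apart.

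Cells detect viral nucleic acid with sensors such as RIG-I, MDA5 and ZBP1, which lead to the secretion of interferons. Type I interferons act through the IFNAR receptor and a transcription factor complex that includes STAT2 and IRF9 and binds the interferon-stimulated response element (ISRE). Interferon gamma acts through the IFNGR receptor and the gamma-activated sequence (GAS) in promoters, and IRF1 carries part of that response. The products block viral translation, degrade viral RNA, tag proteins with ISG15 or attack membranes that enclose pathogens. A viral vector can start the response, which is the question that IR virus against IR addresses at 5 weeks.

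The control elements of these genes can be read in their promoters. RefSeq (GRCm38.p6) gave a window from 250 bases before to 50 after the start for 27 of the 35 genes, and none for Oas2, Usp18, Mx1, Mx2, Rtp4, Ifi27, Zbp1 and Parp14. The ISRE core (GAAA, any 2 bases, GAAA), searched on both strands, was in 17 of the 27 windows (63%), against 1079 of 27025 genes (3.99%). The GAS core TTCNNNGAA was in 10 of 27 (37%) against 9.55% of genes, and the wider-spaced pair (GAAA, any 3 bases, GAAA) in 4 of 27 (14.8%) against 3.17%. Matches of different motifs may overlap, and a match is a description of letters, not a measured binding site. The following stretches, printed 5′ to 3′ on the gene's strand with each match of the motif named on that line in capitals, belong to genes that the comparisons below turn on or that are standard readouts of the response.
Irf1 (GAS core, chr11:53769904-53769952, plus strand): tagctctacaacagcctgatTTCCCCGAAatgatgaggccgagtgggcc
Gbp7 (ISRE core, chr3:142530263-142530312, plus strand): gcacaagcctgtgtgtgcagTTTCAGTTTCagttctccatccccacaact
Gbp7 (GAS core, chr3:142530210-142530277, plus strand): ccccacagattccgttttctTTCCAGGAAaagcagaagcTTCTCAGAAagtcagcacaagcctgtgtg
Stat2 (ISRE core, chr10:128270256-128270305, plus strand): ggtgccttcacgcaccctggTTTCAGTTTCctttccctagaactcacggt
Ifit3 (ISRE core, chr19:34583353-34583436, plus strand): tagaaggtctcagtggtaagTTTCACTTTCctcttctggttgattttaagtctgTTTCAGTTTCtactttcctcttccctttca
Igtp (ISRE core, chr11:58199502-58199551, plus strand): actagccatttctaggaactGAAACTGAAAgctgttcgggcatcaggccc
Isg15 (ISRE core, chr4:156200855-156200916, minus strand): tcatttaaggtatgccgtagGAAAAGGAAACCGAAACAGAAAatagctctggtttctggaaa
Rsad2 (ISRE core, chr12:26456543-26456592, minus strand): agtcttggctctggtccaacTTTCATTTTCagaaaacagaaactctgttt
Irf1 shows a single GAS match and no ISRE core, Gbp7 and Igtp hold both kinds (the GAS match of Igtp, close before its ISRE core, is left in lower case), and Ifit3 and Isg15 carry more than 1 ISRE core.

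Library totals ran from 20634820 to 27265276 reads, of which mitochondrial transcripts took 29.7% to 38.5%. The 35 genes together had 9230 to 17082 reads per heart. Levels are given as CPM, each count divided by the TMM-scaled size of its library and put on a common scale. Camk2d, the gene that the editing system targets, was at 197 to 280 CPM over the 13 hearts, and gene counts do not show base edits. The 6 cardiomyocyte markers were detected in all hearts, and their summed level was lowest in IR edit 4 at 26946 CPM and highest in Sham 2 at 38627 CPM. Sham 2 and IR edit 1 stood apart from the other hearts of their groups in the interferon-stimulated genes. Sham 2 was the lowest of the 3 Sham hearts in 30 of the 35 genes, and IR edit 1 was the highest of the 4 IR edit hearts in 31, so the comparisons that use them are given with and without them.

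Expression of the set was low to moderate. The mean over the 13 hearts was at least 10 CPM for 20 genes, and 7 genes (Isg15, Isg20, Oas1a, Oas3, Mx1, Mx2 and Zbp1) stayed under 3 CPM in every heart. Per kilobase of exon the highest means were those of Ifitm3 at 51.3, Gbp2 at 9.52 and Igtp at 9.30 CPM per kb, and the lowest those of Oas3 at 0.05, Mx1 at 0.26 and Zbp1 at 0.36 CPM per kb. Standard antiviral genes lay across that range, with Ifit2 at 8.37, Rsad2 at 7.10, Isg15 at 2.35 and Mx2 at 0.58 CPM per kb. Mx2 is listed as a polymorphic pseudogene in GENCODE M21.

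Among the RNA sensors, Ddx58 (RIG-I) ranged from 19.8 to 24.9 CPM over the 13 hearts and Ifih1 (MDA5) from 13.6 to 18.7 CPM. Zbp1, a sensor of Z-form nucleic acid, ranged from 0.65 CPM in Sham 2 to 2.41 CPM in IR edit 1. Of the transcription factors, Irf9 lay between 14.6 and 21.4 CPM, and Irf7, the factor that amplifies type I interferon production, between 4.50 and 9.45 CPM. Isg15, the ubiquitin-like modifier, lay between 1.25 and 2.71 CPM. Usp18, which removes ISG15 and damps IFNAR signalling, lay between 2.60 and 4.90 CPM, and Trim25, a ligase that activates RIG-I, between 38.7 and 48.2 CPM.

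The IFIT proteins bind viral RNA and restrain its translation, and Ifit2, at 21.5 CPM or more in every heart, was the most counted of the 3 genes. Oas2 and Oasl2 ranged from 8.69 to 17.0 and from 9.37 to 20.2 CPM, whereas Oas1a stayed between 1.08 and 2.34 CPM. The OAS enzymes make the second messenger that activates RNase L. Rsad2 (viperin), which makes a chain-terminating nucleotide, ranged from 17.2 CPM in IR edit 4 to 40.6 CPM in Sham 1. Parp14, an ADP-ribosyltransferase, had the most reads in a single heart, 1540, and Oas3 the fewest, 4. Ifitm3, which blocks virus entry at membranes, lay between 27.2 and 40.0 CPM, and Bst2 (tetherin), which holds budding virus at the cell surface, between 5.64 and 10.8 CPM.

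**Figure D1:**
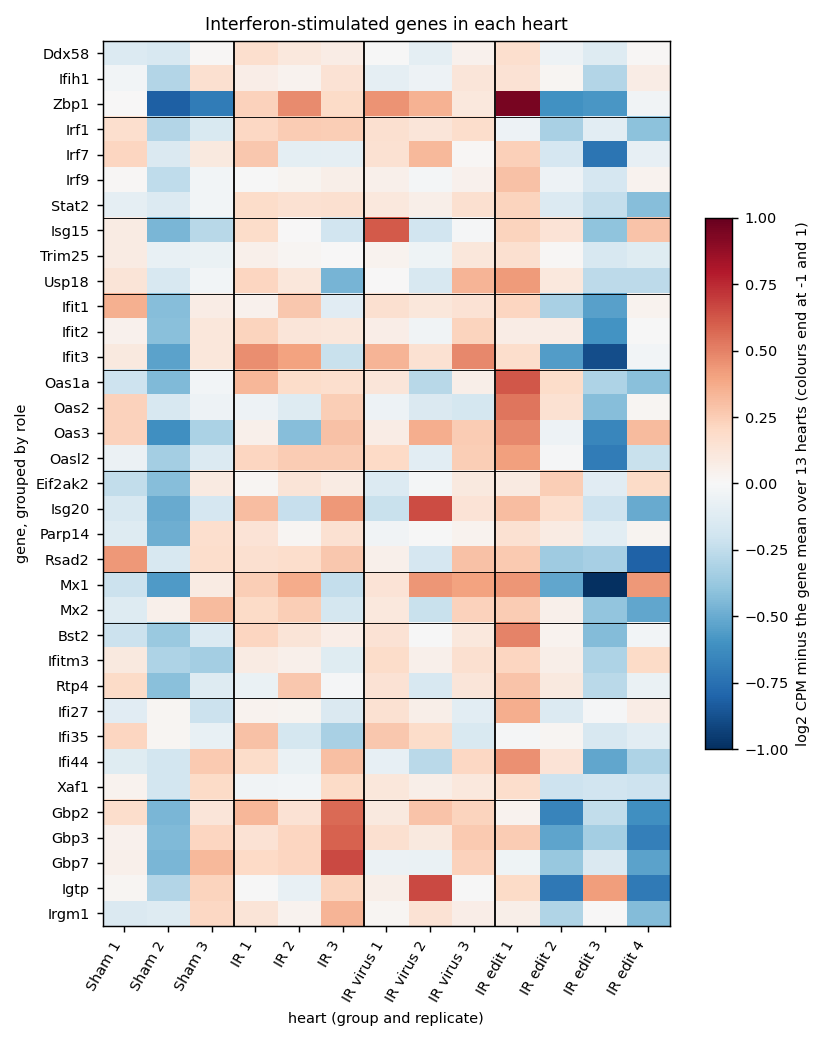
Each row is a gene and each column a heart; colour gives the log2 CPM minus the mean of that gene over the 13 hearts, with colours ending at -1 and 1 and black lines between roles and groups. Sham 2 and IR edit 3 are mostly blue and IR edit 1 mostly red, and the GBP and IRG rows are blue in IR edit 2 and IR edit 4.

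After the control virus, interferon-stimulated genes were not detectably higher than after IR alone. None of the 35 passed the test (edgeR quasi-likelihood with Benjamini-Hochberg adjustment over all genes tested, threshold 0.05), and the smallest adjusted p was 0.962. None had an unadjusted p under 0.05, a level that 2.26% of all genes tested reached as higher and 1.59% as lower, and DESeq2 called 0 as well. The share of all tested genes called was 0%, so the set did not stand apart from the background in this count. The median log2 fold change of the set was -0.05, from -0.33 (Gbp7) to 0.28 (Oas3), against 0.00 over all genes tested. Of the 35 values 15 were above 0 (42.9%), beside 50.2% of all genes.

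The intervals limit how large a lasting difference could be. All 35 of the 95% intervals of IR virus minus IR included 0. Their upper ends had a median of 0.30 on the log2 scale, or 1.23-fold, and 26 of the 35 lay under 0.5. The only upper end above 1 was that of the little-counted Oas3, at 1.11 (2.16-fold). The lowest lower end was -0.82, that of Oas1a. These are intervals of single genes from 3 hearts in each group and they cover the time point sampled.

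**Figure D2:**
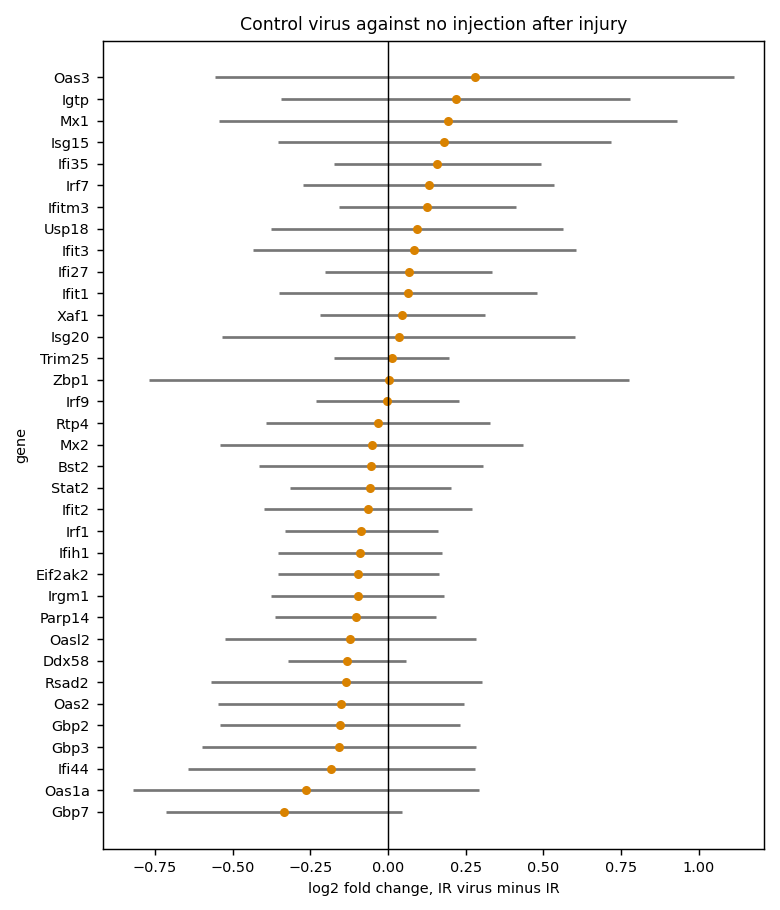
Points are log2 fold changes of IR virus minus IR for each of the 35 genes and lines are 95% intervals from the edgeR fit. Every line crosses 0, and the only line that passes 1 is that of Oas3.

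Gbp7, a guanylate-binding protein that attacks pathogen compartments, had the smallest unadjusted p. It measured 43.5, 43.7 and 59.8 CPM in the IR hearts and 36.3, 36.0 and 44.3 CPM in the IR virus hearts. The groups overlapped, and the log2 fold change was -0.33 ± 0.18 (SE; 95% interval -0.72 to 0.05, unadjusted p = 0.0802 by the edgeR quasi-likelihood test). Ddx58 was at 24.8, 23.8 and 23.3 CPM in IR and 22.1, 20.7 and 22.8 CPM in IR virus, without overlap, a log2 difference of -0.13 ± 0.09. Oas1a and Irf1 were the other genes whose IR virus hearts all lay below the IR hearts, with log2 differences of -0.26 ± 0.26 and -0.09 ± 0.12. That makes 3 of 35 lower without overlap, beside 6.09% of all genes tested, and 0 of 35 higher, beside 5.86%.

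Igtp, an interferon gamma-inducible GTPase, was among the positive values at 0.22 ± 0.26. Its IR virus hearts measured 18.9, 28.8 and 18.2 CPM and its IR hearts 18.1, 17.3 and 21.2 CPM. A single heart, IR virus 2, was high, and without it the log2 difference was -0.025. Exons of Igtp share 162 bases with Irgm2 on the same strand, so reads there cannot be assigned to either gene with certainty. The remaining genes with the smallest p values were Ifi35 (0.16 ± 0.16), Ifitm3 (0.13 ± 0.13), Parp14 (-0.10 ± 0.12), Gbp2 (-0.15 ± 0.18), Ifi44 (-0.18 ± 0.22) and Oas2 (-0.15 ± 0.19), each a log2 difference with its SE and an adjusted p of 0.962 in edgeR.

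By role, the medians of IR virus minus IR lay between -0.15 for the 5 GBP and IRG GTPases and 0.09 for the 3 genes of the ISG15 system. Genes often read for a type I response lay on both sides of 0 on the log2 scale: Isg15 at 0.18, Mx1 at 0.19, Irf7 at 0.13, Ifit3 at 0.08 and Ifit1 at 0.06, but Mx2 at -0.05, Ifit2 at -0.06, Rsad2 at -0.13, Oas2 at -0.15 and Oas1a at -0.26. Isg15 was at 1.99, 1.75 and 1.52 CPM in IR and 2.71, 1.51 and 1.73 CPM in IR virus, with IR virus 1 the highest of the 13 hearts and the groups overlapping.

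The genes that start the response were also read. The 10 interferon genes counted (Ifnb1, Ifna1, Ifna2, Ifna4, Ifne, Ifnk, Ifnz, Ifng, Ifnl2 and Ifnl3) had 9 reads in total over the 13 hearts. None fell in Sham or IR, 3 in IR virus and 6 in IR edit, at most 2 in a heart for any gene, and 6 of the genes had no read. A count of 0 allows up to 3 reads per library from counting error alone, so these sums set no order between groups. All 6 receptor genes were counted well enough to test, and their log2 differences of IR virus minus IR lay between -0.11 (Ifnlr1) and 0.06 (Il10rb). Over the ligands, receptors, sensors and signalling genes, 30 of 44 listed genes were tested. None passed in any of the 6 comparisons, beside 0% to 8.01% of all genes tested. Ticam1, an adaptor of the endosomal RNA sensor TLR3, had the smallest unadjusted p of them in IR virus against IR. It was at 5.72, 5.71 and 6.02 CPM in IR and 8.48, 7.90 and 6.73 CPM in IR virus, without overlap, a log2 difference of 0.41 ± 0.13 with an adjusted p of 0.962 in edgeR. Of the 30 tested, 4 were higher in IR virus without overlap (Ticam1, Tlr9, Il10rb and Stat3), 13.3% beside 5.86% of all genes tested. None was lower without overlap, beside 6.09%. The median log2 difference of the 30 was -0.04, with 12 above 0.

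Against Sham, most of the set was slightly higher in the injured hearts that did not receive the editing system, and no gene passed the test. In IR against Sham, 32 of the 35 log2 fold changes were above 0, with a median of 0.21 (all genes tested: 0.00, with 50.2% above 0). The edgeR test called 0 of the 35 (smallest adjusted p 0.495), beside 0.0127% of all genes called, and DESeq2 called 0. An unadjusted p under 0.05 was reached by 4 genes, all higher in IR, or 11.4% of the set beside 5.25% of all genes tested, and by none in the other direction, beside 3.08%. The IR hearts all lay above the Sham hearts for 7 genes (Irf1, Ddx58, Bst2, Oasl2, Stat2, Zbp1 and Oas1a), or 20% beside 7.94%, and below them for none, beside 6.45%.

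Irf1, the transcription factor with the GAS match shown above, was at 21.3, 15.4 and 17.0 CPM in Sham and 21.9, 22.5 and 22.5 CPM in IR. Sham 1 came close to the IR hearts without reaching them, and the log2 fold change was 0.32 ± 0.12 (adjusted p = 0.495, edgeR). Ddx58 measured 20.2, 19.8 and 22.3 CPM in Sham and at least 23.3 CPM in the 3 IR hearts, a log2 difference of 0.21 ± 0.09. Stat2 measured 21.3, 20.5 and 22.2 CPM in Sham and 25.7, 25.2 and 25.3 CPM in IR, 0.25 ± 0.12. Bst2 (0.38 ± 0.17), Oasl2 (0.42 ± 0.19), Gbp2 (0.38 ± 0.18) and Eif2ak2 (0.26 ± 0.12), the kinase PKR that halts translation on double-stranded RNA, had adjusted p-values between 0.583 and 0.608.

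The size of the shift depended on 1 library. Without Sham 2 the median of IR minus Sham was 0.09 and 25 of 35 values were above 0, and over the hearts left out in turn it ran from 0.09 to 0.26. Sham 2 had the lowest value of all 13 hearts in 10 of the 35 genes and a summed macrophage and monocyte marker level of 107 CPM, where Sham 1 had 167 and Sham 3 had 116 CPM. Fibroblast markers were higher than in Sham in the injured groups. Their summed level was 633 to 658 CPM in Sham, 696 to 906 CPM in IR and 751 to 900 CPM in IR virus. All 4 were above 0 in IR against Sham (median 0.30, 3 with an unadjusted p under 0.05) and in IR virus against Sham (median 0.34, 3 such), and none passed the adjusted test in either. In IR edit against Sham all 4 were above 0 as well (median 0.30) and 2 passed, while the median of the set there was 0.04. The T cell marker Cd4, the only T and NK cell marker tested, had log2 differences of 1.12 in IR against Sham (adjusted p = 0.351, edgeR) and 1.105 in IR virus against Sham (adjusted p = 0.175). In IR edit against Sham its log2 difference was 0.83 (adjusted p = 0.119, edgeR). None of these pairs of groups overlapped, on at most 27 reads in a heart. The other T and NK cell markers had too few reads to test. Cd3e, Cd3d, Cd8a and Klrb1c had lower means in IR than in Sham, and Nkg7 a higher mean. In IR virus, Cd3d, Cd8a and Klrb1c were below Sham, and Cd3e and Nkg7 above it. In IR edit, Cd3e, Cd8a and Klrb1c were below Sham, and Cd3d and Nkg7 above it. The part of these cell types, and of Sham 2, in the result was not tested.

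IR virus against Sham shares the Sham hearts with that comparison. Its median was 0.14, with 31 of 35 values above 0 (88.6%, beside 51.7% of all genes), and without Sham 2 it was 0.04 with 25 above 0. Without Sham 3 it was 0.21. None of the 35 passed (edgeR), beside 0.0127% of all genes, and DESeq2 called 0. A single gene, Ifitm3, had an unadjusted p under 0.05, as a higher value, where 8.64% of all genes tested did so as higher and 6.72% as lower. Ifitm3 was at 36.8, 27.8 and 27.2 CPM in Sham and 39.1, 35.6 and 38.6 CPM in IR virus, and Sham 1 lay within the IR virus range. Its log2 fold change was 0.30 ± 0.13 (adjusted p = 0.301, edgeR). Zbp1 was at 1.21, 0.65 and 0.71 CPM in Sham and 1.67, 1.55 and 1.30 CPM in IR virus, 0.80 ± 0.39 on the log2 scale. Irf1 (0.23 ± 0.12), Isg20 (0.52 ± 0.28), Bst2 (0.32 ± 0.17) and Ifit3 (0.41 ± 0.25) followed, with adjusted p-values from 0.359 to 0.432 in edgeR. The IR virus hearts lay above all Sham hearts for 5 genes (Zbp1, Bst2, Ifit3, Mx1 and Stat2), or 14.3% of the set beside 11% of all genes tested, and below them for none, beside 10.3%.

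**Figure D3:**
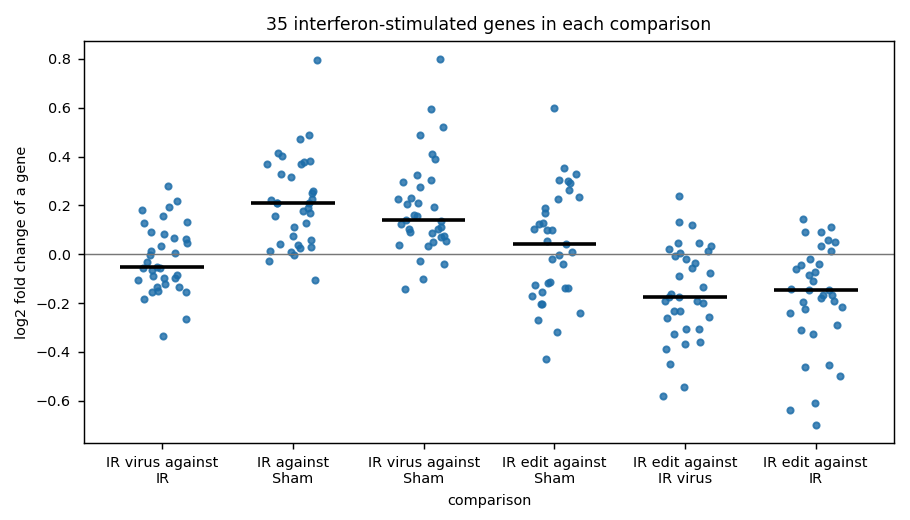
Each point is the log2 fold change of 1 of the 35 genes and the bar is their median, for the 6 comparisons. The points sit mostly above 0 in IR against Sham and IR virus against Sham, and mostly below 0 in IR edit against IR virus and IR edit against IR; comparisons share hearts.

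Most of the set had lower values in the editing group than in the other injured hearts, and here too no gene of the set passed the test. In IR edit against IR, 27 of 35 log2 fold changes were below 0 and 8 above (22.9%, beside 49.6% of all genes), with a median of -0.15. The edgeR test called 0 of 35, beside 1.42% of all genes tested, and DESeq2 called 3, all lower in IR edit (Gbp2 with adjusted p = 0.00657, Irf1 with 0.0124 and Gbp7 with 0.0155), beside 1.29% of all genes that DESeq2 called lower. An unadjusted p under 0.05 was reached by 8 genes (Irf1, Gbp2, Gbp7, Gbp3, Irgm1, Stat2, Rsad2 and Ifit3), all lower, beside 7.48% of all genes tested that were lower and 7% that were higher. The IR edit hearts all lay below the IR hearts for 4 genes (Irf1, Gbp2, Gbp7 and Ifit2), or 11.4% of the set beside 6.85%, and above them for none, beside 5.97%.

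Irf1 (chromosome 11, 53770014 to 53778374, plus strand, mm10) was at 18.3, 15.1, 17.6 and 14.2 CPM in IR edit, below each of the IR hearts (21.9 to 22.5 CPM) and each of the IR virus hearts (20.5 to 21.4 CPM). Replicates 2 and 4 were also below the lowest Sham heart, at 15.4 CPM. The log2 difference from IR was -0.45 ± 0.11 (adjusted p = 0.0541, edgeR) and that from IR virus -0.37 ± 0.11 (adjusted p = 0.108). Exons of Irf1 share 135 bases with Gm17334 on the other strand, and whether the authors counted by strand is not given in the sources used here.

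Gbp2, Gbp3 and Gbp7 lie in the same stretch of chromosome 3 (142530342 to 142638008, plus strand, mm10). They encode guanylate-binding proteins that coat and disrupt the membranes around intracellular pathogens. Gbp2 was at 29.2, 25.7 and 34.4 CPM in IR and 23.8, 14.7, 19.6 and 15.1 CPM in IR edit, without overlap. Its log2 difference was -0.70 ± 0.17 (adjusted p = 0.0554, edgeR), and against IR virus, at 24.8, 28.3 and 27.1 CPM, it was -0.55 ± 0.17 (adjusted p = 0.131). Gbp7 was at 36.6, 29.0, 34.2 and 26.1 CPM in IR edit, below the 43.5 CPM of the lowest IR heart, a log2 difference of -0.64 ± 0.17 (adjusted p = 0.0727, edgeR). Against IR virus the Gbp7 values overlapped at -0.30 ± 0.17.

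Gbp3 measured 21.6, 22.6 and 29.5 CPM in IR and 23.3, 13.5, 15.4 and 12.1 CPM in IR edit, where IR edit 1 lay among the IR hearts and the other 3 below them. Its log2 difference was -0.61 ± 0.19 (adjusted p = 0.153, edgeR). Irgm1, a regulator of the immunity-related GTPases, was at 30.3, 28.4 and 34.9 CPM in IR and 28.8, 22.4, 27.7 and 20.5 CPM in IR edit, -0.33 ± 0.12. Igtp separated the IR edit hearts into high and low, with 20.8 and 24.4 CPM in replicates 1 and 3 and 11.1 CPM in each of replicates 2 and 4. GBP genes are alike in sequence and Gbp7 shares 637 exonic bases with the pseudogene Gm43802, so the split of reads between them is uncertain.

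The 5 GBP and IRG genes as a role had a median of -0.61 in IR edit against IR and -0.39 against IR virus, with all 5 below 0 in each. Against Sham the median was -0.24, also with none above 0, and in IR against Sham it was 0.37 with 5 of 5 above 0. The 4 OAS genes had medians of -0.03 in IR edit against IR and -0.01 against IR virus. The 3 IFIT genes had -0.24 and -0.26. Whether the GTPases differ from the other roles was not tested.

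**Figure D4:**
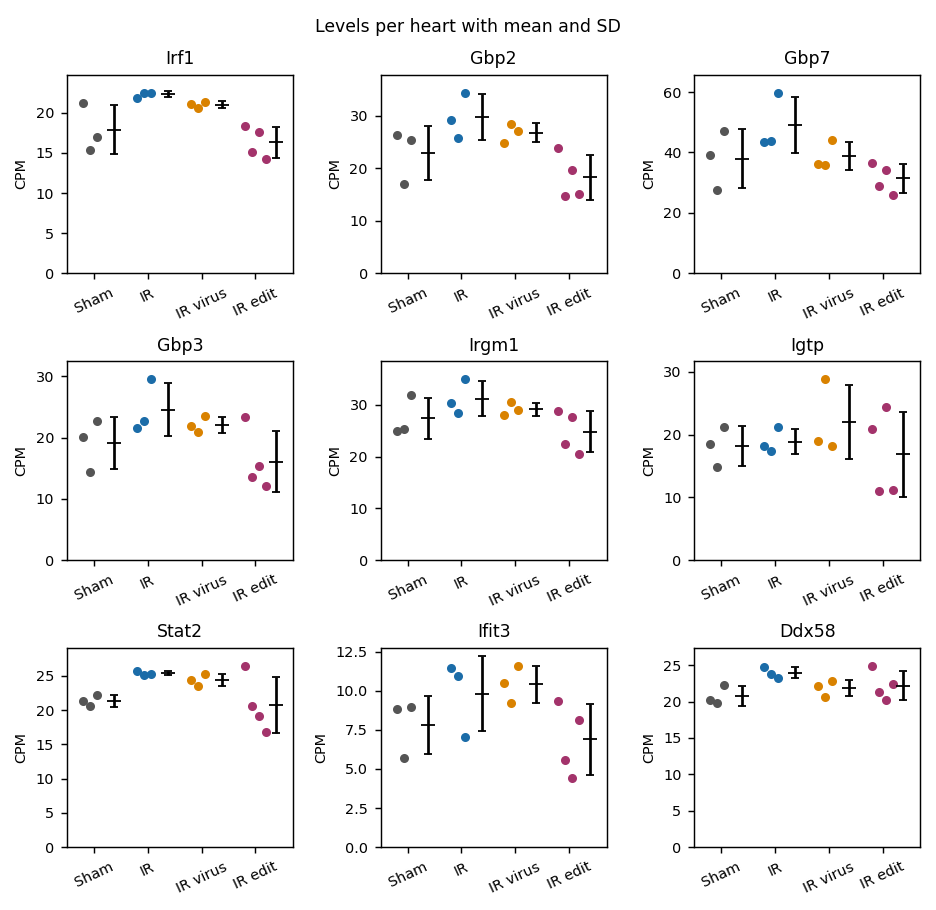
Points are CPM in each heart for 9 of the genes, on linear axes from 0, and the black marks are the mean with its SD for each group (n = 3, and n = 4 in IR edit). For Irf1 and Gbp2 all 4 IR edit hearts lie below the IR and the IR virus hearts, while for Gbp3 and Stat2 IR edit 1 lies with them.

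In IR edit against IR virus, 26 of the 35 values were below 0 and 9 above (25.7%, beside 48.5% of all genes), with a median of -0.18. None passed (edgeR), beside 2.02% of all genes, and DESeq2 called 0. An unadjusted p under 0.05 was reached by Irf1, Gbp2, Ifit3 and Gbp3, all lower, beside 7.95% of all genes tested that were lower and 7.21% that were higher. The hearts did not overlap for Irf1 and Gbp2, or 2 of 35 beside 7.07% of all genes tested, and none was higher without overlap, beside 6.83%. Ifit3 was at 10.5, 9.20 and 11.6 CPM in IR virus and 9.39, 5.60, 4.45 and 8.13 CPM in IR edit, a log2 difference of -0.58 ± 0.23 (adjusted p = 0.242, edgeR). IR edit 1 overlapped the IR virus hearts and the other 3 lay below them. Ifit3 and Ifit3b are near-identical, which makes its counts uncertain. Stat2, with 24.4, 23.6 and 25.3 CPM in IR virus, had its highest and its lowest value of all 13 hearts within IR edit, 26.4 CPM in replicate 1 and 16.8 CPM in replicate 4. Its log2 difference was -0.23 ± 0.11, and that of Irgm1 -0.23 ± 0.12.

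IR edit 1 decided how much of the set was called. Without it, 5 genes passed in IR edit against IR (Gbp3 with adjusted p = 0.0146, Gbp2 with 0.016, Stat2 with 0.0212, Irf1 with 0.0356 and Rsad2 with 0.0391, edgeR), and 3 in IR edit against IR virus (Gbp3 with 0.0348, Gbp2 with 0.0355 and Stat2 with 0.037). All were lower in IR edit, where 301 and 477 of all 15584 genes tested were then called in either direction, 137 and 223 of them lower. The medians of the set were -0.29 in each. The heart left out was singled out by these same genes, so the added calls are no separate evidence. Without IR edit 3, Irf1 (0.0364) and Gbp2 (0.0496) passed against IR, and the set's medians were -0.03 in each. That fit called 489 of all 15647 genes tested against IR, where the fit of all hearts called 223. Without IR edit 2 or IR edit 4 the median against IR was -0.09. The heart whose absence shifts the median towards 0 is thus not the heart whose absence adds the most calls.

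In IR edit against Sham, values lay on both sides of 0, with 19 of 35 above it (54.3%, beside 49.8% of all genes) and a median of 0.04. None passed (edgeR), beside 8.01% of all genes tested, and DESeq2 called 0. An unadjusted p under 0.05 was reached by 1 gene as higher and 1 as lower, beside 12.4% and 11.2% of all genes tested. The smallest p belonged to Eif2ak2, at 21.4, 18.8 and 27.0 CPM in Sham and 26.9, 30.1, 23.5 and 29.0 CPM in IR edit, a log2 difference of 0.29 ± 0.11 (adjusted p = 0.134, edgeR) with overlapping groups. Rsad2 measured 40.6, 26.9 and 34.0 CPM in Sham and 35.9, 23.4, 23.8 and 17.2 CPM in IR edit, -0.43 ± 0.19 (adjusted p = 0.188). Bst2 (0.30 ± 0.16), Gbp2 (-0.32 ± 0.17), Ifitm3 (0.23 ± 0.13) and Zbp1 (0.60 ± 0.37) followed. No gene of the set separated these groups in either direction, where 8.22% of all genes tested were higher and 8.18% lower without overlap. The sign of the median also turned with the hearts used: it was -0.03 without Sham 2 and -0.08 without IR edit 1, and it was 0.08 without Sham 3 and 0.13 without IR edit 3. A single gene passed when 1 of 3 hearts was left out: Eif2ak2 without Sham 3 (higher, adjusted p = 0.0373), Rsad2 without IR edit 1 (lower, 0.0204) and Bst2 without IR edit 3 (higher, 0.0486), in edgeR. Over all genes tested, these fits called 664 of 15949, 1280 of 15584 and 2351 of 15647 in either direction. Calls of 1 gene in 35 are thus no result about the set.

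The spread within IR edit was wide. As the median over the 35 genes of the log2 CPM minus each gene's mean, the IR edit hearts lay at 0.22, -0.05, -0.29 and -0.09, spanning more than the IR hearts (0.18, 0.12 and 0.15) or the IR virus hearts (0.10, -0.00 and 0.12). The Sham hearts lay at 0.03, -0.31 and 0.01. Over all genes tested the same median stayed between -0.01 and 0.02 in every heart, where the TMM scaling itself holds it close to 0. IR edit 1 had the highest value of all 13 hearts in 15 of the genes, and IR edit 3 the lowest in 11, Sham 2 in 10 and IR edit 4 in 7.

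**Figure D5:**
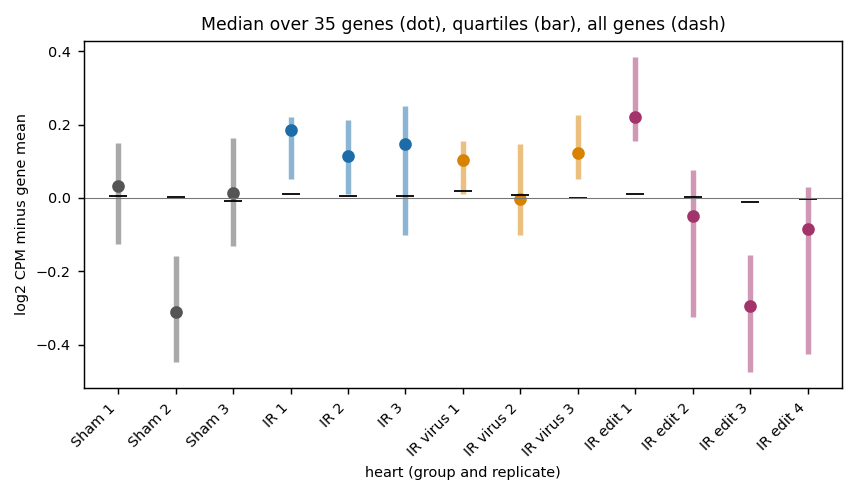
Dots are the median over the 35 genes of log2 CPM minus each gene's mean over the 13 hearts, bars run from the first to the third quartile over genes, and black dashes give the same median over all genes tested. The TMM scaling itself holds the dashes close to 0. The IR hearts lie between 0.12 and 0.18, whereas the IR edit hearts run from -0.29 to 0.22 and Sham 2 lies at -0.31.

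Ranked by group mean, IR was the highest of the 4 groups for 17 of the 35 genes, IR virus for 14, IR edit for 4 and Sham for none, beside 17.5%, 25.6%, 28.1% and 28.7% of all genes tested. The lowest mean was in Sham for 16 genes, in IR edit for 16, in IR virus for 2 and in IR for 1, beside 29.6%, 29.4%, 23.6% and 17.3% of all genes tested. The most frequent order, in 7 genes, was IR, IR virus, Sham, IR edit. These orders carry no test, and for most genes neighbouring groups overlapped.

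Other interferon-inducible genes, 60 in a separate list of which 59 were tested, were described by the same counts and medians. In IR virus against IR none passed, with a median of -0.06. In IR edit against IR, 2 of the 59, Gbp4 and Gbp5, passed as lower, beside 100 of all 15690 genes tested. Below 0 were 48 of the 59 values, beside 7911 of all 15690 genes tested, with a median of -0.28. Gbp4 and Gbp5 are guanylate-binding proteins, and Gbp5 also promotes inflammasome assembly. Gbp4 was at 45.5, 44.9 and 65.0 CPM in IR and 34.4, 21.2, 29.9 and 17.0 CPM in IR edit, a log2 fold change of -1.01 ± 0.21 (adjusted p = 0.0293, edgeR). Its span on chromosome 5 overlaps those of Gbp8 and Gbp9 on the same strand. Shared exons were not examined for this list, so the counts of Gbp4 are uncertain. Gbp5 was at 19.0, 19.7 and 26.2 CPM in IR and 15.8, 10.4, 11.5 and 8.25 CPM in IR edit, -0.91 ± 0.20 (adjusted p = 0.0399). Neither group pair overlapped, as in 18 of the 59 genes (lower), beside 6.85% of all genes tested. Both calls were lost without IR 1, IR 2, IR 3, IR edit 2 or IR edit 4, with adjusted p-values of up to 0.112 for Gbp4 and 0.139 for Gbp5. Against IR virus neither passed, at -0.59 ± 0.22 for Gbp4 and -0.68 ± 0.20 for Gbp5. Tap1, part of a transporter of peptides for antigen presentation, was at 11.5, 11.3 and 14.2 CPM in IR and between 5.79 and 10.8 CPM in IR edit, -0.73 ± 0.18 (adjusted p = 0.0643, edgeR).

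Markers of immune cells moved unevenly beside these values. The 8 macrophage and monocyte markers summed to 129 to 148 CPM in IR, 137 to 145 CPM in IR virus and 117 to 161 CPM in IR edit, and 7 of them were tested. Against IR 4 of the 7 were above 0 with a median log2 difference of 0.12, against IR virus 4 of 7 with 0.11 and against Sham 5 of 7 with 0.33. Ccr2, the receptor that brings monocytes into tissue, went against those medians and was the only 1 of the 7 to pass the test, as lower in IR edit. It was at 11.0, 11.9 and 6.11 CPM in IR, 8.76, 8.95 and 9.22 CPM in IR virus and 4.04, 4.97, 3.16 and 3.20 CPM in IR edit. The log2 fold change was -1.33 ± 0.25 against IR (adjusted p = 0.0136, edgeR), -1.22 ± 0.25 against IR virus (0.0211) and -0.96 ± 0.25 against Sham (0.0317). Leaving out hearts in turn took the adjusted p as high as 0.108 (without IR 2), 0.0823 (without IR virus 1) and 0.119 (without Sham 3). The 6 T and NK cell markers summed to 0.90 to 1.93 CPM in IR edit and 1.04 to 1.79 CPM in IR, with no marker above 27 reads in any heart, and the neutrophil marker Ly6g had 0 reads in every heart. The part of Ccr2-expressing cells in the lower GBP and Irf1 values was not tested.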

How the data were processed

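RNA from 13 hearts was sequenced from mRNA libraries, per the labels' protocols. The deposited files hold, for each library, the authors' raw counts of reads by gene symbol, made with Trimmomatic 0.39, HISAT2 2.1.0 and featureCounts 1.6.2 on mm10, per the submitters' processing notes. Neither the gene annotation nor the strand setting is stated in the sources used here. Groups came from the titles. Libraries held 20634820 to 27265276 reads; genes of few reads have wide intervals.

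In R 4.3.3, edgeR 4.0.16 scaled libraries with TMM, filtered with filterByExpr and fitted 1 mean per group over all 13 libraries (9 residual degrees of freedom). The quasi-likelihood test was adjusted over all 15690 genes tested, threshold 0.05. The SE is the size of the log2 fold change over the root of F, and 95% intervals use the t distribution. The code was tested on simulated data. Exon lengths and positions came from GENCODE M21, promoters from RefSeq. No 2 libraries were alike within sampling noise.

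The genes, the lists and the comparisons were chosen with earlier results of these data known. Named were all genes that passed, or else the 6 with the smallest p (10 for IR virus against IR), up to 3 of each other list, and the 3 highest and lowest per kilobase. Genes shown beside them as non-overlapping, Igtp's replicates and the marker Ccr2 were chosen after their values were seen. Alternatives were omitting the filter, requiring 1 CPM in 3 libraries, scaling by DESeq2 size factors, the Wald test of DESeq2 1.42.0, a robust dispersion, the compared groups alone, the title's number as a block, each heart left out and, added after seeing the data, a fit without the IR edit libraries.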

Additional observations from a re-analysis of the deposited data

Results flagged for a closer look

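Within the 4 IR edit hearts, the level of Ifit2 in replicate 3 was 21.5 CPM, far below the other 3 at 32.4 to 34.2 CPM. The level of Xaf1, an interferon-inducible inhibitor of the XIAP protein, was 12.2 CPM in replicate 1, far above the other 3 at 9.36 to 9.47 CPM. Chance marks about 1 group in 20 in this way, the genes tried numbered 35, and only IR edit was large enough to be examined.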

How the results depend on the processing

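In IR virus against IR, 0 of the 35 genes passed under every alternative run. With no filter on low counts, 1 gene passed in IR against Sham (Gbp7), 2 in IR edit against Sham, 5 in IR edit against IR virus and 6 in IR edit against IR. Over all 31973 genes then tested, these comparisons called 598, 2205, 1018 and 1021 in the same order. DESeq2's Wald test called 3 and a robust dispersion 1 (Irf1, adjusted p = 0.0482) in IR edit against IR. With each heart left out in turn, the counts ran from 0 to 1 in IR edit against Sham, 0 to 3 in IR edit against IR virus and 0 to 5 in IR edit against IR. The log2 difference of Igtp in IR virus against IR turned to -0.025 without IR virus 2, and over the hearts left out ran up to 0.34. Over named genes, 1016 values kept their direction and side of the threshold, 59 newly passed and 28 no longer passed. The cause was not tested.

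Over all genes, the counts called in the order IR virus against IR, IR against Sham, IR virus against Sham, IR edit against Sham, IR edit against IR virus and IR edit against IR were 0, 2, 2, 1257, 317 and 223. They were 37, 598, 863, 2205, 1018 and 1021 of 31973 genes with no filter. With DESeq2 they were 0, 57, 203, 1619, 517 and 444, of 12036 to 15686 genes. With only the compared groups they were 0, 115, 203, 246, 220 and 168, of 14963 to 15268 genes.

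The replicate numbers were not shown to pair the hearts. With group means removed, same-numbered hearts correlated at -0.13 to 0.221, and differently numbered hearts at means of -0.113 to 0.0529. With 3 or 4 hearts in a group, these values cannot decide whether a number marks a shared batch. With the number as a block, 0 of the 35 passed in all 6 comparisons, the medians were -0.05, 0.21, 0.14, 0.05, -0.15 and -0.10, and Ccr2 no longer passed. Number 4 occurs only in IR edit 4, so the block also takes that heart out of every IR edit comparison. Changes in those comparisons therefore cannot be credited to the number alone. Over all genes the block gave 0, 5, 174, 590, 159 and 122 calls. Depth limits the 7 genes under 3 CPM most.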

Other observations

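Ly6c2, a marker of inflammatory monocytes, had 200 reads in IR 2 and 0 to 6 reads in each of the other 12 hearts. The high level of that 1 library was not tested.

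Grouped by the promoter motifs, the 11 genes with an ISRE core alone had a median log2 fold change of -0.29 in IR edit against IR, the 6 with both motifs -0.11, the 4 with a GAS core alone -0.23 and the 6 with neither -0.15. In IR virus against IR the same medians were -0.09, -0.08, -0.02 and 0.01. These are descriptions of small groups, with no test.

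Cxcl10, a chemokine that interferons induce, was at 0.49, 0.39 and 0.38 CPM in Sham, 0.74, 0.94 and 0.43 CPM in IR, 0.96, 0.92 and 1.09 CPM in IR virus and 0.59, 0.49, 0.31 and 0.57 CPM in IR edit. Its log2 difference was 1.22 ± 0.32 in IR virus against Sham (adjusted p = 0.149, edgeR) and -0.98 ± 0.28 in IR edit against IR virus (adjusted p = 0.0994, edgeR), and neither pair of groups overlapped. In IR virus against IR the hearts overlapped, at 0.49 ± 0.29 (adjusted p = 0.962, edgeR). Uba7, which activates ISG15 for conjugation, had a log2 difference of -0.45 ± 0.12 in IR edit against IR virus (adjusted p = 0.0628, edgeR).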
